A study of Mus musculus with 20 samples.

Results

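The Cas family of adaptor proteins has 4 members in the mouse, encoded by Bcar1, Nedd9, Efs and Cass4, and these were 4 of the 55866 genes in the count table. They were taken by gene symbol, and the family was chosen by a measured value, the very high counts of Bcar1 in immunoprecipitated against input libraries, so that difference is described here for the members without a test. RiboTagEC mice (Rpl22 HA/HA crossed with Cdh5CreERT2, C57BL/6J females) carry a hemagglutinin (HA) tag on a ribosomal protein wherever Cre driven by the endothelial Cdh5 promoter was activated by tamoxifen. An anti-HA immunoprecipitate (IP) then holds ribosome-bound mRNA of endothelial cells, all vessel types pooled. All mice received 75 mg/kg of tamoxifen on 5 days from 3 weeks of age and Py8119 mammary tumor cells at 8 weeks. The 5 tumors of the control IgG group came from mice given control mouse IgG, and the 5 tumors of the 6-3-A6 group from mice given 25 mg/kg of 6-3-A6, the antibody against Notch4, both for 10 days from a tumor volume of about 30 mm3 (50 mm3 in the study's results). From each tumor the whole homogenate (input) and the IP were sequenced, which gave 20 libraries in 4 groups of 5.

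Cas proteins have no enzymatic activity. They carry an SH3 domain, which binds focal adhesion kinase, and a substrate domain with repeated tyrosines that Src family kinases phosphorylate when integrins or growth factor receptors such as the VEGF receptors are engaged. The phosphorylated repeats bind the adaptors Crk and CrkL, which bring the exchange factors encoded by Dock1 and Rapgef1 and so activate the GTPases Rac1 and Rap1 in adhesion and migration. Bcar1 is the broadly expressed founding member, Nedd9 is known from lymphocytes and migrating tumor cells, Efs from thymus and Cass4 from blood cells.

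The repeated substrate site is a tyrosine codon followed, after any pair of codons, by a proline codon (TATNNNNNNCCN or TACNNNNNNCCN, in frame and on the coding strand). It is shown because it is the feature that the members share and by which the family binds Crk. Of the longest protein-coding transcripts of each gene in GENCODE M21 (GRCm38), Bcar1 had 16 such sites in 874 codons, Nedd9 14 in 833, Efs 8 in 560 and Cass4 6 in 685. Among 21549 coding genes, 0.0325% held at least as many sites as Bcar1, 0.0557% as many as Nedd9, 0.394% as many as Efs and 1.06% as many as Cass4. The first 150 bases with the most sites are given for each member, 5′ to 3′, with the tyrosine and proline codons of each site in capitals. They are bases 448 to 597 of the coding sequence of Bcar1 (GRCm38 chr8:111720747-111720896, minus strand, exon 2), 253 to 402 of Nedd9 (chr13:41338631-41338780, minus strand, exon 3), 349 to 498 of Efs (chr14:54920355-54920594, minus strand, joined from exons 3 and 4) and 886 to 1035 of Cass4 (chr2:172426885-172427034, plus strand, exon 5).
Bcar1: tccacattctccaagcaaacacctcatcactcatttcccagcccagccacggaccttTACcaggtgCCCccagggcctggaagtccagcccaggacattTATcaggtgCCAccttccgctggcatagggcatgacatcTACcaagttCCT
Nedd9: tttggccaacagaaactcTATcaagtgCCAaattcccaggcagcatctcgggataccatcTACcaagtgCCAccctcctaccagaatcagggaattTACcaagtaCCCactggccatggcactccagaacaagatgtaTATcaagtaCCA
Efs: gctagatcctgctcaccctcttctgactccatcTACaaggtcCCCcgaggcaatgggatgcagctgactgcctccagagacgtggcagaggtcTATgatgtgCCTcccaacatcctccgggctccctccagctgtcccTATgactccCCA
Cass4: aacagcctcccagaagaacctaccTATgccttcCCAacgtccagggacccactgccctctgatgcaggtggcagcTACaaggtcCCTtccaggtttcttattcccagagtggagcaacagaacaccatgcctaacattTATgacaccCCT
The stretch of Nedd9 held 4 sites and those of the other members 3 each.

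The libraries held 11881214 to 26728205 counts on genes (median 16942643). The labelled fractions were checked against their markers. All 15 endothelial genes tested, among them Pecam1 and Cdh5, were called higher in IP (median log2 fold change 4.53). Of these, Egfl7 had only 0 to 16 counts in the 6-3-A6 input libraries and 2 to 14 in the control IgG input libraries. Its fitted value is thus imprecise, and its call gives no support to the check. Of the other cell types, 6 of 9 macrophage, 3 of 9 fibroblast, 2 of 6 epithelial and 3 of 6 lymphoid genes were called lower. Of 7 mural and 4 erythroid genes 0 were called, and over all genes 19.6% were called higher and 20.8% lower. The shares of fibroblast and epithelial genes called lower were thus not far from that of all genes. An endothelial score was taken as the mean log2 CPM, the count scaled to library size with TMM factors, of the endothelial genes minus that of the macrophage, fibroblast and epithelial genes. It lay between -0.09 and 3.29 in the 10 IP libraries and between -3.74 and -2.02 in input. Macrophage genes were still at a mean of 7.32 log2 CPM in IP, beside 7.17 for the endothelial genes. The lowest scores in IP belonged to control IgG replicate 4 (-0.09) and 6-3-A6 replicate 2 (0.07). The input libraries of these tumors scored -3.03 and -2.72, within the range of input. Fewer endothelial cells, less RNA per cell and a less pure IP cannot be told apart by the score of such bulk libraries.

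Bcar1 was among the most abundant mRNAs of the IP fraction and far from it in input. In control IgG tumors 1 to 5, its level was 59.3, 83.3, 88.7, 63.8 and 61.3 CPM in input. In the IP of the same tumors it was 3133, 2110, 1886, 890 and 1066 CPM. In 6-3-A6 tumors 1 to 5, input held 80.0, 80.2, 92.0, 29.0 and 53.1 CPM. The corresponding IP libraries held 3318, 1529, 3324, 4168 and 3061 CPM. Each of the 10 IP libraries was above each of the 10 input libraries, and the lowest IP library, control IgG replicate 4, was also the one with the lowest endothelial score, whose part in the level was not tested. By raw count Bcar1 ranked between 8 and 97 of all genes in IP and between 2166 and 5119 in input. It took 0.0881 to 0.432% of all counts in IP and 0.00227 to 0.00907% in input.

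Nedd9, the paralog nearest to Bcar1 in level, was high in IP as well. Its input levels ran from 39.0 to 57.7 CPM in control IgG tumors (median 51.0) and from 40.8 to 65.0 CPM in 6-3-A6 tumors (median 49.5). In IP, control IgG replicates 1 to 5 held 1006, 785, 620, 318 and 370 CPM of Nedd9. The 6-3-A6 replicates 1 to 5 held 1035, 363, 856, 1387 and 1251 CPM. All IP libraries were above all input libraries here too, and the lowest IP library of each treatment group was the same as for Bcar1.

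Efs and Cass4 were near the lower limit of the measurement. Efs had 2 to 11 counts in control IgG input and 0 to 5 in 6-3-A6 input. In control IgG IP replicates 1 to 5 it had 82, 62, 2, 17 and 48 counts (5.01, 2.87, 0.115, 1.09 and 1.92 CPM). In 6-3-A6 IP it had 39, 17, 41, 67 and 72 counts (2.31, 1.04, 1.78, 3.72 and 3.72 CPM). The exception in IP was control IgG replicate 3, whose 2 counts fell among those of input and below the 3 counts that a count of 0 allows (0.172 CPM in that library). Cass4 had 8 to 50 counts in input and 12 to 65 in IP, that is 0.728 to 3.84 CPM and 0.522 to 2.90 CPM, and the fractions overlapped throughout.

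**Figure D1:**
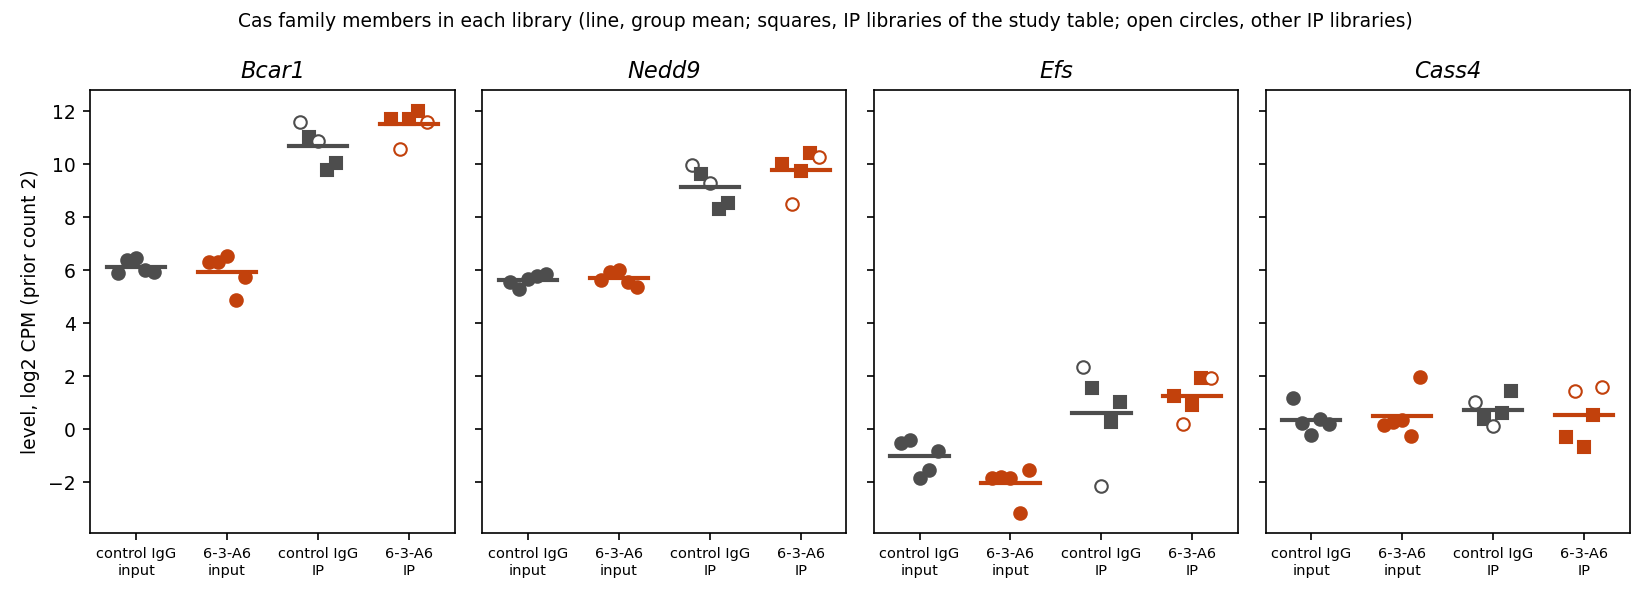
Level of the 4 members in each of the 20 libraries, in log2 CPM with a prior count of 2, by treatment and fraction; each point is 1 library, lines are group means, squares are the 6 IP libraries of the study's comparison and open circles the other 4. Bcar1 and Nedd9 separate IP from input completely, from 4.87 to 6.53 in input to 9.80 to 12.03 in IP for Bcar1, whereas the fractions overlap for Cass4.

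Levels of different genes were compared per kilobase of the longest coding transcript (3142 bases for Bcar1, 4871 for Nedd9, 2705 for Efs and 3731 for Cass4), although the counts were taken over whole gene spans and include intron reads. On this scale 6-3-A6 IP held 980 ± 306 CPM per kb of Bcar1 (SD, n = 5), 201 ± 82.0 of Nedd9, 0.930 ± 0.440 of Efs and 0.434 ± 0.293 of Cass4. Control IgG IP held 578 ± 287, 127 ± 59.0, 0.815 ± 0.691 and 0.437 ± 0.176 CPM per kb in the same order. For comparison, Pecam1, an endothelial adhesion molecule, was at 281 ± 136 CPM per kb in 6-3-A6 IP and 298 ± 161 in control IgG IP. In input the levels were 22.7 ± 4.34 (Bcar1), 10.2 ± 1.51 (Nedd9), 0.333 ± 0.144 (Cass4) and 0.155 ± 0.0796 (Efs) CPM per kb for control IgG, and 21.3 ± 8.12, 10.8 ± 2.10, 0.421 ± 0.343 and 0.0550 ± 0.0322 for 6-3-A6. Bcar1 and Nedd9 were far above the other members in each group, and within each IP group the ranges of Bcar1 and Nedd9 did not overlap. The ranges of Efs and Cass4 overlapped in both IP groups, and those of Bcar1 and Nedd9 overlapped in 6-3-A6 input (9.24 to 29.3 against 8.37 to 13.3). Bcar1 made up 70.9 to 80.7% of the counts of the 4 members in IP and 38.1 to 67.2% in input.

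Bcar1 was 32.8-fold higher in IP than in input over all libraries, a log2 fold change of 5.04 ± 0.29 (SE, edgeR, 10 against 10). Nedd9 was 14.5-fold higher (3.86 ± 0.25) and Cass4 1.11-fold (0.15 ± 0.35). The fitted value of Efs (3.03 ± 0.50) is imprecise, since it rests on 46 counts over all input libraries and Efs passed the filter only through IP. In this comparison 40.4% of 14488 genes were called (19.6% higher and 20.8% lower, edgeR, adjusted p under 0.05), and since it chose the family nothing is read from the members against that share. Over all genes the median log2 fold change was -0.06. Only 14 of the 14488 genes had a larger log2 fold change than Bcar1 and 165 a larger one than Nedd9. Over all libraries the value of Bcar1 lay above that of each of the 15 endothelial markers, which ran from 3.16 ± 0.27 (Eng) to 4.94 ± 0.55 (Cldn5). The gap between Bcar1 and Cldn5 was smaller than either SE. The value of Nedd9 fell within the range of the markers.

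Bcar1 was above Nedd9, and Nedd9 above Cass4, within each treatment group as well, while the values of Efs have the same limit as over all libraries. In control IgG tumors the log2 fold changes of IP over input were 4.61 ± 0.38 for Bcar1, 3.58 ± 0.34 for Nedd9, 2.32 ± 0.64 for Efs and 0.33 ± 0.51 for Cass4, where 11.4% of genes were called (8.28% higher, 3.10% lower). These were 1649 genes, or 3249 with the tumor as a block. Here Bcar1 lay below the highest endothelial marker (4.91), and 29 genes had a larger log2 fold change. In 6-3-A6 tumors they were 5.46 ± 0.39, 4.13 ± 0.35, 3.89 ± 0.72 and -0.02 ± 0.50, where 26.3% of genes were called (12.8% higher, 13.5% lower). Here Bcar1 lay above the highest endothelial marker (4.98), and 9 genes had a larger log2 fold change.

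The ratio of IP to input of the same tumor showed how far tumors differed. For Bcar1 it was 52.8, 25.3, 21.2, 13.9 and 17.4 in control IgG tumors 1 to 5. It was 41.4, 19.0, 36.1, 143 and 57.6 in 6-3-A6 tumors 1 to 5. The highest ratio, in 6-3-A6 tumor 4, paired the highest IP level with the lowest input level of Bcar1, and in that input library the endothelial score was the lowest of all (-3.74). For Nedd9 the ratio was 5.79 to 21.6 in control IgG and 5.88 to 30.6 in 6-3-A6 tumors. On the log2 scale the ratio of Bcar1 exceeded that of Nedd9 in 10 of 10 tumors, by 1.24 ± 0.53 (SD), and the mean ratio of the endothelial markers in 9 of 10, by 0.81 ± 0.55. The exception was control IgG tumor 3, where Bcar1 was 0.23 below the endothelial mean. The log2 ratio of Cass4 was above 0 in 6 of 10 tumors. That of Efs was above 0 in 9 of 10, which is not read, since Efs had only 0 to 11 counts per input library.

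**Figure D2:**
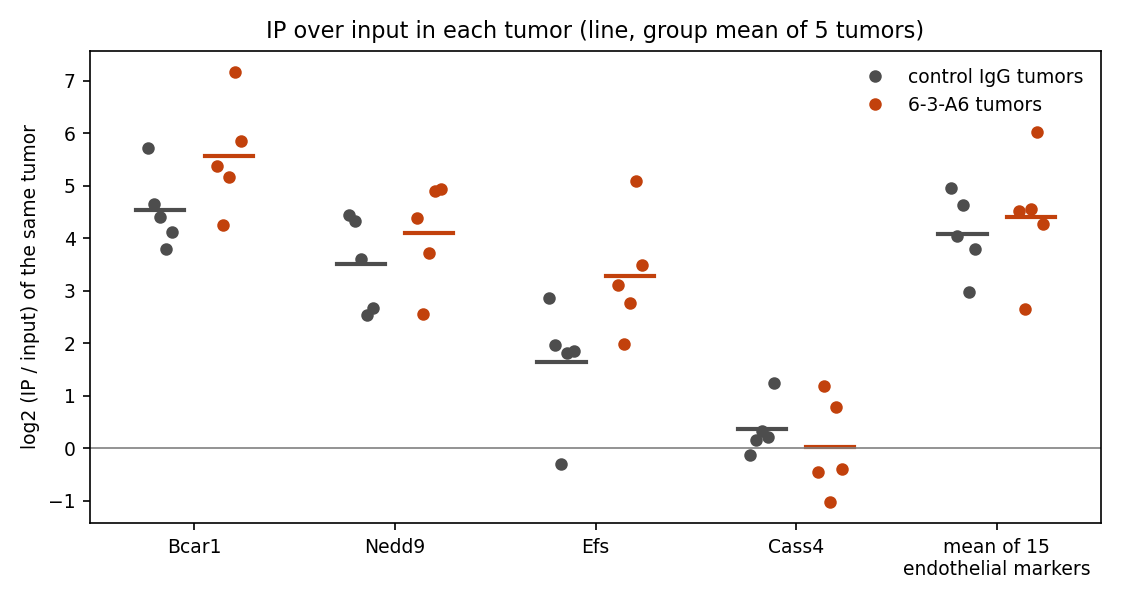
Log2 ratio of IP to input of the same tumor for the 4 members and for the mean of the 15 endothelial markers; points are tumors, 5 per treatment group, and lines are group means. Bcar1 lies between 3.80 and 7.16 in the 10 tumors and the endothelial mean between 2.65 and 6.02, whereas Cass4 lies on both sides of 0.

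Neighboring genes did not share the counts of Bcar1. In the count table Bcar1 spans chr8:112437106-112470441 (minus strand, as all spans here in the coordinates of the count table, which do not match GRCm38 and were read as GRCm39) and no other listed gene overlaps it. The nearest genes with counts were Ctrb1, a pancreatic protease gene with 10 counts over all libraries, and Cfdp1, a chromatin-associated factor, at -0.18 ± 0.13 on the log2 scale of IP over input (adjusted p = 0.275, edgeR). Nedd9 (chr13:41463057-41640838, minus strand) encloses 4 predicted genes without a count and overlaps Gm32401, which had 602 counts against 159243 of Nedd9. Efs (chr14:55153992-55163583, minus strand) overlaps no gene. Cass4 (chr2:172235714-172275677, plus strand) overlaps the antisense gene Gm14455, with 130 counts against 536 of Cass4, and strand use in counting is not given in the sources used here, so that reads of these 2 genes may be mixed.

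Of 37 genes of Cas signaling, in 5 lists that hold genes upstream and downstream of Cas proteins and endothelial genes such as Kdr, Flt1 and Nos3, 36 could be tested. The exception, Ilk, had too few counts and overlaps Rrp8 and Taf10 in the count table. Of the 36, 24 were called higher in IP, 0 lower and 12 not called, with a median log2 fold change of 0.57 against -0.06 over all genes. Over all genes 19.6% were called higher and 20.8% lower. Of the kinases and phosphatases that act on Cas proteins, 6 of 9 were higher, from Yes1, a Src family kinase (2.07 ± 0.21, adjusted p = 7.30e-08), to Src itself, which was not called (-0.17 ± 0.16, adjusted p = 0.416). Both genes of the NSP family, whose proteins bind the C-terminus of Cas proteins, were higher: Sh2d3c by 3.16 ± 0.24 (adjusted p = 9.00e-10) and Bcar3 by 0.30 ± 0.10 (adjusted p = 0.0201). Of the Crk, DOCK and Rap arm 6 of 9 were higher, at most 1.41 ± 0.14 for Dock1, the Rac1 exchange factor, and not Elmo2, its cofactor (0.14 ± 0.12, adjusted p = 0.349).

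Of the focal adhesion scaffold genes 5 of 9 were higher, most of all Tgfb1i1, the paxillin relative Hic-5 (3.51 ± 0.31, adjusted p = 1.01e-08), whereas Zyx, the actin regulator zyxin, was not called (-0.31 ± 0.17, adjusted p = 0.148). Of 7 genes of the VEGF pathway 5 were called higher, the highest value being that of Nos3, the endothelial nitric oxide synthase (5.09 ± 0.45). Nos3 and Hspb1 had only 0 to 13 and 0 to 16 counts in the input libraries and passed the filter through IP, so their fitted values are imprecise and their calls give no support to the count. The lowest of them, the GTPase gene Hras, was not called (0.16 ± 0.20, adjusted p = 0.545).

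**Figure D3:**
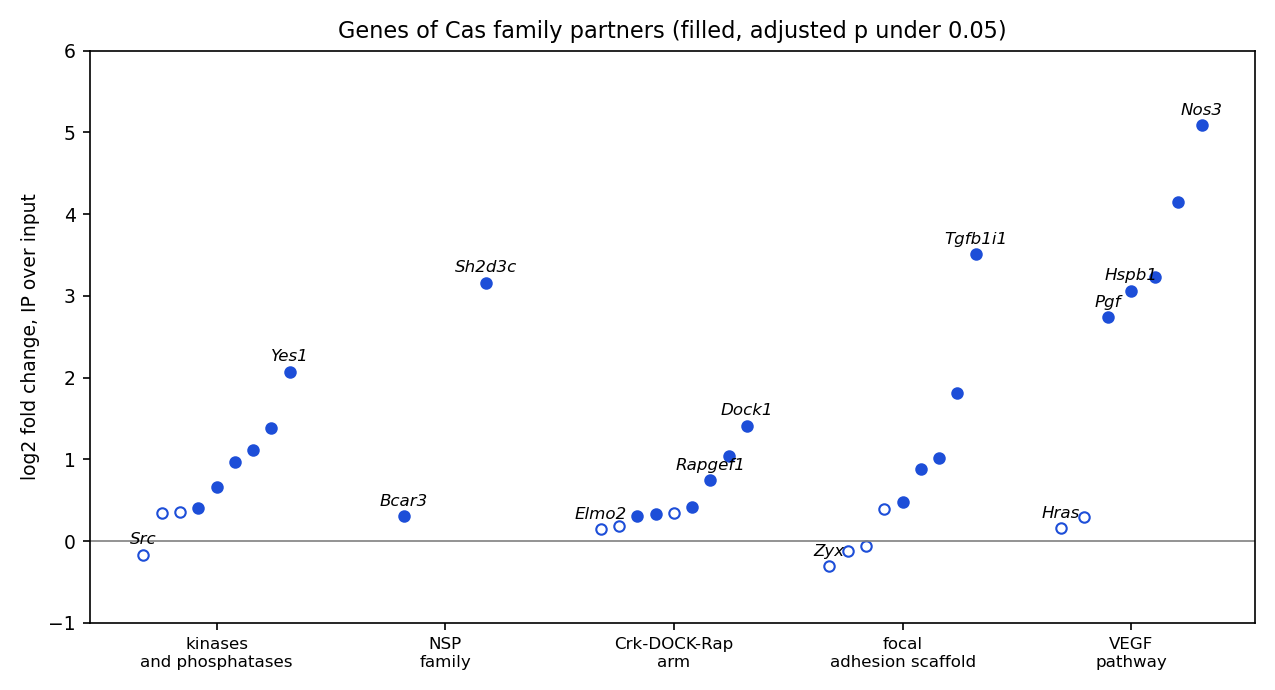
Log2 fold change of IP over input (10 against 10 libraries, edgeR) of the 36 tested partner genes in 5 lists; filled points passed an adjusted p of 0.05 and open points did not, and the genes given in the text are labelled. Most points lie between -0.31 and 2.07, and Sh2d3c, Tgfb1i1 and 5 of the VEGF pathway genes lie higher.

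Whether Bcar1 differed between 6-3-A6 and control IgG depended on the IP libraries compared. The study compared 3 control IgG libraries (replicates 2, 4 and 5) with 3 6-3-A6 libraries (replicates 1, 3 and 4), after removal of 4 outliers in a principal component analysis. In these, Bcar1 was at 2110, 890 and 1066 CPM in control IgG and at 3318, 3324 and 4168 CPM in 6-3-A6, without overlap. Its log2 fold change was 1.38 ± 0.33, or 2.60-fold, and it was called higher (adjusted p = 0.0430, edgeR). It was the only one of the 4 members to be called, where 4.61% of 13999 genes were called (360 or 2.57% higher, 286 or 2.04% lower). The study names Bcar1 among its changed genes on these same libraries, so this call is not independent of that choice.

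Nedd9 stood at 785, 318 and 370 CPM against 1035, 856 and 1387 CPM in the same libraries, also without overlap, and its log2 fold change of 1.12 ± 0.34 did not pass edgeR's test (adjusted p = 0.0936). It passed with DESeq2 (adjusted p = 0.00779) and without a filter on low counts (adjusted p = 0.00140). With a library left out it ranged from 0.92 to 1.66 and was called in 1 of 6 fits (lowest adjusted p = 0.0171, edgeR). For Efs the log2 fold change was 0.35 ± 0.41 (adjusted p = 0.700, edgeR) and for Cass4 -1.10 ± 0.47 (adjusted p = 0.227, edgeR), the latter from 22 to 65 against 12 to 24 counts.

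The endothelial score moved with the treatment in these 6 libraries. It was 2.73 ± 0.11 (SD, n = 3) in 6-3-A6 and 0.69 ± 0.68 in control IgG, without overlap, and p = 0.1 by a two-sided exact permutation test, the smallest value that 3 against 3 libraries allow. All 15 endothelial markers had log2 fold changes above 0 (median 0.86, 4 called), and 6 of 9 macrophage markers were called lower, as were 2 of 9 fibroblast, 1 of 7 mural and 2 of 6 epithelial markers, whereas 3 of 4 erythroid markers were called higher and 0 of 5 lymphoid markers were called. With the score as a covariate the log2 fold change of Bcar1 was -0.15 ± 0.69 (adjusted p = 0.976, edgeR) and that of Nedd9 -0.46 ± 0.74 (adjusted p = 0.912, edgeR). Since the score does not overlap between the groups, treatment and the endothelial share of the IP cannot be told apart in these libraries. In the input of the same tumors the scores overlapped. They were -2.55, -2.66 and -3.74 in 6-3-A6 and -2.77, -3.03 and -3.05 in control IgG. Whether the IP itself differed between the groups was not tested. Without control IgG replicate 2 the log2 fold change of Bcar1 was 1.88 (adjusted p = 0.0125, edgeR), and without any one of the other 5 libraries it was 1.18 to 1.43 and no longer called (adjusted p = 0.0847 to 0.128, edgeR).

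Among all 10 IP libraries the difference was smaller. The left-out control IgG replicates 1 and 3 held 3133 and 1886 CPM of Bcar1 at endothelial scores of 2.31 and 3.29, both scores above those of the 3 kept control libraries. The left-out 6-3-A6 replicates 2 and 5 held 1529 and 3061 CPM at scores of 0.07 and 1.56, below those of the kept 6-3-A6 libraries. With all of them, Bcar1 was at 3080 ± 962 CPM in 6-3-A6 and 1817 ± 901 CPM in control IgG (SD, n = 5), and the groups overlapped. The log2 fold change was 0.75 ± 0.36 with a 95% interval of -0.02 to 1.52 (edgeR, adjusted p = 1.00). Nedd9 gave 0.65 ± 0.38, Efs 0.18 ± 0.63 and Cass4 -0.02 ± 0.49, none of them called (adjusted p = 1.00 each, edgeR). Here 0% of 13602 genes were called by edgeR and 0 by DESeq2, and 292 had an unadjusted p under 0.05. The endothelial score was 1.97 ± 1.18 and 1.53 ± 1.30 (p = 0.571, two-sided exact permutation test).

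In input no member was called between the treatments. Bcar1 gave a log2 fold change of -0.09 ± 0.26 (95% interval -0.65 to 0.47), Nedd9 0.10 ± 0.17 (-0.26 to 0.46) and Cass4 0.32 ± 0.48, and Efs had too few counts for the test. Of 13683 genes 0% were called by edgeR, 0 by DESeq2 and 180 at an unadjusted p under 0.05. The treatment effect in IP minus that in input was 0.85 ± 0.46 for Bcar1 (95% interval -0.11 to 1.80, adjusted p = 1.00, edgeR), 0.55 ± 0.43 for Nedd9 and -0.35 ± 0.71 for Cass4. For Efs no such value is given, since its input part could not be tested. This interaction called 0% of 14488 genes by edgeR and 0 by DESeq2, with 125 at an unadjusted p under 0.05.

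**Figure D4:**
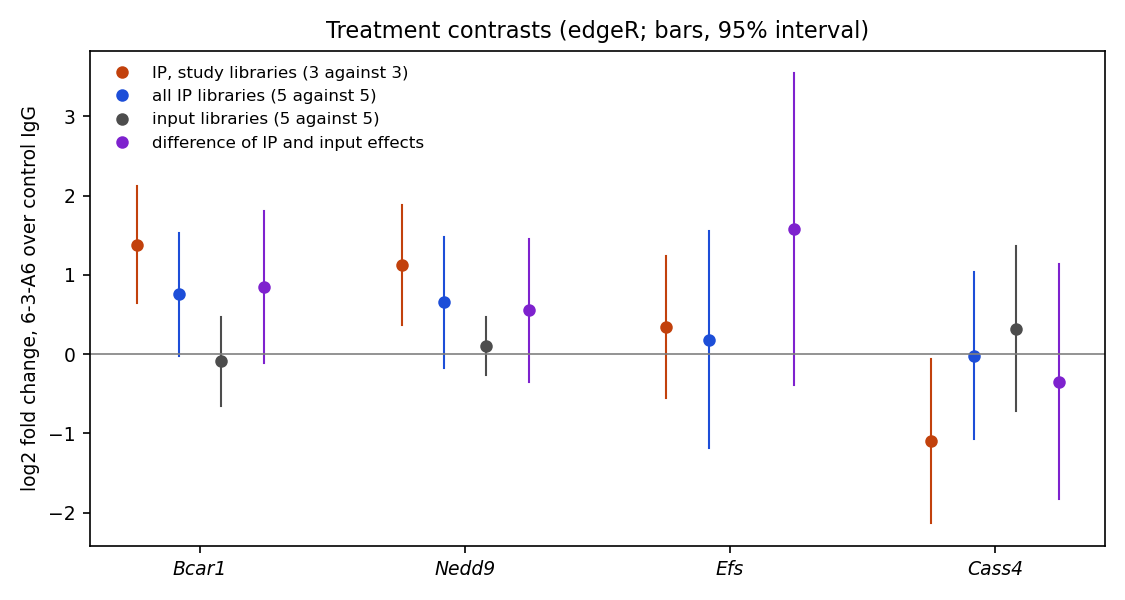
Log2 fold change of 6-3-A6 over control IgG for each member in the study's 6 IP libraries, all 10 IP libraries and the 10 input libraries, and the difference of the IP and input effects; points are edgeR estimates and bars 95% intervals. For Bcar1 the estimate goes from 1.38 in the study's libraries to 0.75 in all IP libraries and -0.09 in input; Efs has no value in input, and its last point rests on 0 to 11 counts per input library and is not read.

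Because the endothelial score differed between IP libraries, Bcar1 was also expressed relative to the mean of the endothelial markers of the same library, a measure chosen after the data had been seen. In all 10 IP libraries it stood 4.31 ± 0.44 log2 units above that mean in 6-3-A6 and 3.55 ± 0.40 in control IgG (SD, n = 5), with p = 0.0159 by a two-sided exact permutation test and 0.143 after Benjamini-Hochberg adjustment over 9 such tests. In this measure 4 of 5 6-3-A6 libraries lay above the highest control IgG library, and the difference of 0.76 ranged from 0.57 to 0.88 when any one library was left out. In the study's 6 libraries the values were 4.09 ± 0.14 and 3.73 ± 0.28 (exact permutation p = 0.2), and in input 3.15 ± 0.35 and 3.09 ± 0.15 (exact permutation p = 0.714). Nedd9 relative to the same markers gave 2.59 ± 0.38 and 2.01 ± 0.45 in all 10 IP libraries (exact permutation p = 0.0635, adjusted 0.286). The difference of Bcar1 and Nedd9 was 1.72 ± 0.31 and 1.54 ± 0.09 there (exact permutation p = 0.254). In the study's 6 libraries it was 1.74 ± 0.19 and 1.48 ± 0.05, without overlap (exact permutation p = 0.1, the smallest that 3 against 3 allow, adjusted 0.3).

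**Figure D5:**
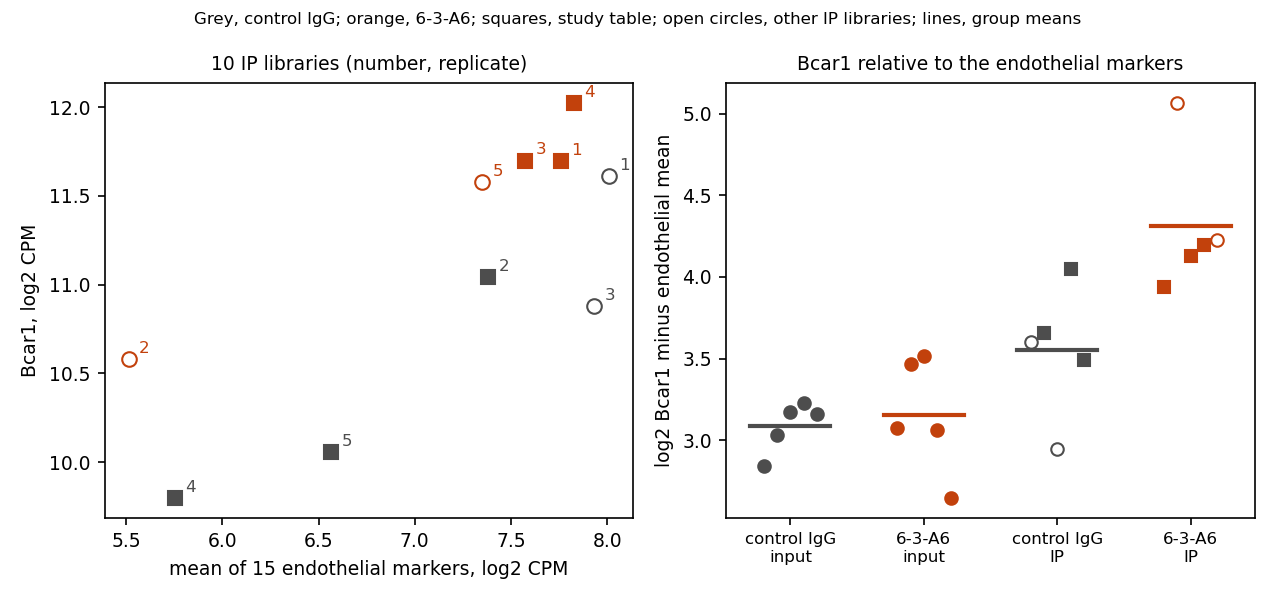
Left, level of Bcar1 against the mean of 15 endothelial markers in the 10 IP libraries, both in log2 CPM. Right, log2 level of Bcar1 minus that mean in all 20 libraries with group means as lines; squares are the study's 6 IP libraries and open circles the other 4 IP libraries. In 6-3-A6 IP the values lie between 3.94 and 5.07 and in control IgG IP between 2.95 and 4.05.

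Of the partner genes, 6 of 36 were called higher and 0 lower in the study's 6 libraries, where 2.57% of all genes were called higher, with a median log2 fold change of 0.24 against -0.05 over all genes. The study names Pgf, Nos3 and Hras beside Bcar1 on these same libraries, of which Hras was not called here (0.74 ± 0.23, adjusted p = 0.0982, edgeR). The lists were made with that known, so the count is not independent evidence. Sh2d3c stood at 20.2 to 37.8 CPM in control IgG and 48.1 to 91.8 CPM in 6-3-A6 (1.30 ± 0.29, adjusted p = 0.0321, edgeR). Rapgef1, which encodes a Rap1 activator, stood at 120 to 139 and 216 to 278 CPM (0.86 ± 0.19, adjusted p = 0.0351, edgeR). Tgfb1i1 gave 1.28 ± 0.28 (adjusted p = 0.0303), Pgf, a ligand of the VEGF receptor Flt1, 1.38 ± 0.33 (adjusted p = 0.0402) and Nos3 1.34 ± 0.32 (adjusted p = 0.0390). Hspb1, a heat shock protein of the actin cytoskeleton, gave 1.50 ± 0.31 (adjusted p = 0.0262) from only 1.87 to 2.13 CPM in control IgG and 4.09 to 8.22 CPM in 6-3-A6. Its level is uncertain, since the values rest on 29 to 148 counts a library and the handling of reads shared between gene copies is not given in the sources used here. With the endothelial score as a covariate 0 of 13999 genes were called, these 6 included, and Sh2d3c, Tgfb1i1 and Nos3 were at -0.09, -0.07 and -0.16. In all 10 IP libraries the 6 genes gave -0.12 (Pgf) to 0.70 (Sh2d3c), and 0 of the 36 partner genes tested were called there or in the interaction. In input 0 of 34 were called, with Nos3, Hspb1 and Ilk not tested. Of the cell type markers tested 0 were called in these comparisons, with 14 of the 15 endothelial markers tested in input. Without control IgG replicate 4 or without 6-3-A6 replicate 3 none of the 6 calls held (adjusted p = 0.0602 to 0.195, edgeR), while the genes called in all went from 646 to 188 and 9.

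The genes whose pattern over the 10 IP libraries was most like that of Bcar1 were Capzb, a subunit of the actin capping protein (Pearson coefficient of log2 CPM 0.956), Nedd9 (0.953), the unnamed gene model Gm5784 (0.935), Neurl1b, a ubiquitin ligase (0.933), and Stard4, a sterol carrier (0.929), out of 13601 genes ranked. The points are the same 10 libraries, which differ in endothelial score, and the coefficients are a description. In the 10 input libraries the coefficients were -0.0044 (Capzb), 0.33 (Nedd9), -0.55 (Gm5784), 0.33 (Neurl1b) and -0.27 (Stard4). Gm5784 had only 1 to 22 counts per IP library and 0 to 7 per input library, so its coefficients are imprecise. By Spearman's coefficient Nedd9 stood at rank 80, and 2 of the 5 genes, Neurl1b and Stard4, were again among the first 5. None of the 4 genes other than Nedd9 shared the high ratio of IP to input, with log2 fold changes of 0.32 (Capzb), 1.82 (Gm5784), 1.20 (Neurl1b) and 0.86 (Stard4).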

How the data were processed

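From 10 Py8119 tumors of RiboTagEC mice, 20 libraries (input and IP of each tumor) were sequenced (100 bases, single end). Raw counts, deposited by the authors, had been made with STAR 2.7.4a and featureCounts over whole gene spans. The methods name mm10, but none of the 4 members' coordinates in the table match GRCm38. A second deposited table holds, as a signal, the counts of 6 IP libraries divided by DESeq2 size factors. It served only to identify the libraries of the study's comparison (100% of values equal, relative tolerance 1e-06), and its log2 fold changes, standard errors, test statistics and p-values, computed by the authors, were not used.

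Groups were taken from the sample titles. For 6-3-A6 samples another label names the opposite fraction, and the endothelial markers matched the titles. The members and gene lists were chosen with earlier results of these data known. Counts were tested with edgeR 4.0.16 in R 4.3.3 (quasi-likelihood test after filterByExpr and TMM scaling, adjusted over all genes after Benjamini and Hochberg, threshold 0.05). All 4 members passed the filter, except Efs in input. SE is the log2 fold change divided by the square root of F, and 95% intervals use the t quantile at edgeR's total degrees of freedom (2.07 to 2.21 SE). CPM used TMM factors, and log2 CPM a prior count of 2. Single values per library were compared by exact permutation. P-values measure the spread between these tumors only.

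Named are the 4 members, partner genes called in a treatment comparison, the highest and lowest of each partner list in IP over input, the 5 genes most like Bcar1 over the 10 IP libraries, and neighboring or overlapping genes. Endothelial markers were added where a value is set beside them. Alternatives were DESeq2 1.42.0, RLE factors, no filter, an endothelial covariate, the study's tumors alone, each library left out and a replicate block. Input and IP of 1 tumor are paired by design, and their deviations from the group means correlated at -0.08 to 0.70 (8 of 10 above 0.1). The main fits, with their SE and the calls of partner genes, did not use this pairing, and the replicate block did. The test was run on simulated counts with 200 changed genes. The simulated libraries were unpaired and each change exceeded the treatment effects given for the members, so smaller effects were not checked. No 2 libraries of a group agreed within sampling noise. Intervals and floors of 3 counts cover counting error only.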

Additional observations from a re-analysis of the deposited data

Results flagged for a closer look

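Among the 16 combinations of member and group of 5 libraries, 2 held a library that stood apart from the other 4 by Dixon's criterion, which chance does in about 1 of 20 groups. The lowest level of Efs in 6-3-A6 input was 0 CPM in replicate 4, where a count of 0 allows up to 0.273 CPM, and the nearest library held 0.167 CPM. The highest level of Cass4 in 6-3-A6 input was 3.84 CPM in replicate 5 (50 counts), with the nearest library at 1.17 CPM. Bcar1 and Nedd9 had no such library.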

How the results depend on the processing

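Bcar1 kept its direction in IP against input under each alternative run, with log2 fold changes of 4.93 to 5.18 when any one library was left out. With the study's tumors alone, 3416 genes were called over all libraries and 607 in control IgG tumors, where the tumor as a block called 3249 and leaving out a library 1088 (control IgG IP 3) to 2385 (6-3-A6 input 4). The block changed no other call, with Bcar1 at 4.96 in IP against input and 0.99 in the interaction. Treatment groups share only replicate numbers (deviations of same-numbered libraries correlated above 0.1 in 2 of 10 pairs), and with that block 0 genes were called in IP or input and Bcar1 was at 0.83 and -0.16. No paired analysis was possible for the study's 6 libraries because their groups share 1 replicate number.

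In these 6 libraries 1190 genes were called with DESeq2, 1459 without a filter and 0 with the endothelial score as a covariate, which turned Bcar1 to -0.15, Nedd9 to -0.46, Efs to -1.64, Sh2d3c to -0.0893, Tgfb1i1 to -0.0667 and Nos3 to -0.16. Leaving out a library gave 9 (without 6-3-A6 replicate 3) to 653 genes (without control IgG replicate 2), with 188 without control IgG replicate 4, 161 without 6-3-A6 replicate 4 and 345 without 6-3-A6 replicate 1. Bcar1 then lay between 1.18 and 1.88, and was called only without control IgG replicate 2. The cause was not tested.

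Over all 10 IP libraries Cass4 was at 0.00682 with DESeq2, 0.0334 with the covariate and -0.37 to 0.24 with a library left out, and Efs at -0.12 to 0.72. In input Bcar1 ranged from -0.23 to 0.0842 (above 0 only without 6-3-A6 replicate 4) and Cass4 from -0.30 to 0.63, and in the interaction Cass4 ranged from -0.68 to 0.28. Relative to the endothelial mean, the difference in Bcar1 ranged from -0.0248 to 0.19 in input and that in Nedd9 from 0.41 to 0.72 in IP (exact permutation p = 0.0317 to 0.143). Of the 5 genes most like Bcar1, 2 were shared with Spearman's coefficient and 1 to 4 remained with a library left out. Of the other values, 161 under other settings and 560 with a library left out were classed as unchanged. In treatment comparisons this meant the same direction and side of the threshold. For members in IP against input it meant a shift smaller than the SD between tumors, which allows a change of sign. Thus Cass4 in 6-3-A6 tumors went from -0.02 to 0.61 without 6-3-A6 input replicate 5. For numbers of genes called it meant a limited ratio to the main number. Efs and Cass4 are limited by their counts, at most 82.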
